A study of Danio rerio with 70 samples.

Results

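T-cell acute lymphoblastic leukaemias (T-ALLs) of the zebrafish mutant line hulk were compared with sorted thymocytes of healthy fish, 14 of the 70 RNA samples of the series. The members were taken from the labels: 9 primary T-ALLs of hulk;Tg(lck:GFP) fish and 5 sorted thymus samples of healthy Tg(lck:GFP) fish. Both groups carry lck:GFP, a transgene that drives green fluorescent protein from the promoter of the T-cell kinase gene lck, and both are sorted cells collected and sequenced by the same laboratory. Leukaemic cells were collected once GFP-positive cells had spread through 90.0% of the fish. The mutated gene behind hulk is not named in the labels, and ages are not given. T-ALLs of the mutant lines otg (n = 10) and shrek (n = 10), on the same lck:GFP background and also sorted, served to ask whether a value of the hulk tumours differed from that of other T-ALLs. Sorted thymocytes of preleukemic hulk fish (n = 3) are given beside a few values as a description. Preleukemic thymocytes of otg (n = 4), shrek (n = 2) and hMYC (n = 3) fish are not described. All 46 samples were fitted together. The groups beyond hulk T-ALL and healthy thymocytes thus also entered the gene filter, the scaling and the estimate of spread behind that comparison.

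Thymocytes develop in the thymus from blood progenitors that switch on Notch signalling and the transcription factors TCF7, GATA3 and BCL11B. They rearrange their T-cell receptor genes with the RAG recombinase, pass through a stage with both CD4 and CD8, and leave under the control of chemokine and sphingosine receptors. In T-ALL this programme is arrested, and human tumours commonly carry activated NOTCH1, high MYC, lost cell cycle inhibitors and altered chromatin regulators.

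Each hulk tumour had between 10899692 and 16260759 reads assigned to genes, and each healthy sample between 13259934 and 15437586. Levels are given in CPM, read counts relative to the library size after TMM scaling (trimmed mean of M values, which corrects for a few genes taking up many reads). They compare samples for a gene, not genes with each other. Mitochondrial transcripts set 3 libraries apart, taking 61.4% of reads in hulk tumour 2, 25.0% in hulk tumour 1 and 22.0% in healthy sample 3. Shares of reads are of all reads counted to genes, mitochondrial ones included, so other genes have lower shares in such libraries. Many counts below are repeated without these 3 libraries, which exceeded a limit of 20%. Healthy sample 3 also held 0.405% of reads in exocrine pancreas and gut genes, against 0.0232% or less in the other 4 healthy samples, and hulk tumour 7 had the fewest genes with a read, 15895 against up to 24296. All healthy samples were deposited in a separate table from the tumours, so that any difference between the tables and one between the groups cannot be told apart. These are bulk samples: fewer cells of a type and less of its RNA per cell cannot be told apart.

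Of 21831 genes tested, 1850 (8.47%) were higher and 1133 (5.19%) lower in hulk T-ALLs than in healthy thymocytes at an adjusted p under 0.05 in edgeR's quasi-likelihood test with Benjamini-Hochberg adjustment. Below, rose and fell are used only of genes that passed this test. By at least 2-fold, 1661 rose and 1054 fell. With no overlap between the 9 tumours and the 5 healthy samples, 259 rose (1.19% of the genes tested) and 357 fell (1.64%). Over all genes tested the log2 fold change had a median of 0.095. Approximate standard errors (SE) follow log2 fold changes after the sign ±. They are the absolute log2 fold change divided by the square root of the test's F statistic. Leaving out the 3 libraries rich in mitochondrial reads gave 1148 higher and 800 lower genes, and with no scaling beyond the library size 939 were higher and 1101 lower. The counts were lower without any of healthy samples 1, 2, 4 or 5, with 830, 802, 823 and 1064 genes higher and 598, 582, 593 and 713 lower.

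**Figure D1:**
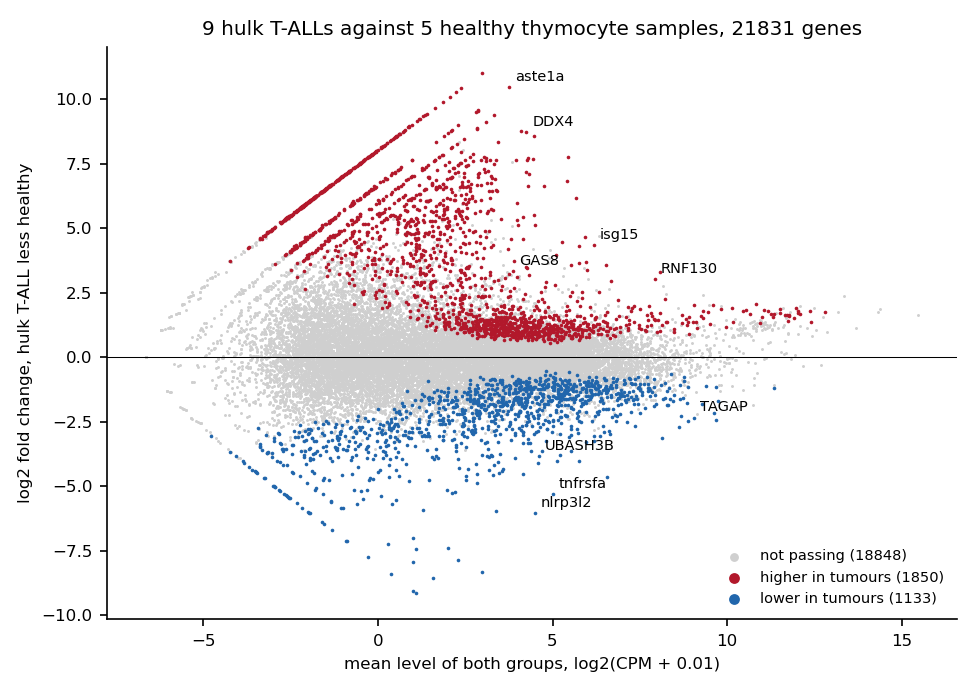
The horizontal axis gives the mean level of a gene over both groups as log2(CPM + 0.01), and the vertical axis its log2 fold change, hulk T-ALL less healthy, for the 21831 genes tested. Red points mark the 1850 genes that were higher, blue points the 1133 that were lower and grey points those that did not pass, and the largest rises lie among genes of low level.

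The sorted tumours carried T-cell transcripts. lck (ENSDARG00000102525), the kinase of the T-cell receptor whose promoter drives the reporter, ranged from 298 to 1591 CPM with a median of 659 in the tumours and stood at 819, 839, 405, 1127 and 899 CPM in healthy samples 1 to 5. The ranges overlapped (edgeR log2 fold change -0.09 ± 0.31, adjusted p = 0.887). ZAP70 (ENSDARG00000015752), the kinase recruited by the stimulated receptor, ranged from 303 to 764 CPM with a median of 579 against 473, 466, 407, 647 and 474 CPM, and did not pass either (edgeR log2 fold change 0.15 ± 0.25, adjusted p = 0.736). The coreceptors and recombinases spanned wider ranges among the tumours than among the healthy samples. cd8a was at 1980.0 CPM in tumour 7 and 13.9 CPM in tumour 1, with healthy samples at 216, 201, 131, 264 and 296 CPM, and cd4-1 ranged from 19.1 to 1295 CPM with a median of 192 against 182, 255, 192, 443 and 714 CPM. RAG1, the recombinase that cuts antigen receptor genes, ranged from 145 to 4104 CPM with a median of 705 in the tumours, where tumours 7 and 9 were highest at 4104 and 3867 CPM. Healthy RAG1 was uneven as well, at 276, 326, 648, 1775 and 2970.0 CPM. None of cd8a, cd4-1, RAG1 and RAG2 passed (edgeR adjusted p = 0.537, 0.96, 0.88 and 0.512), and neither did dntt, which adds bases at receptor joints. It stood at 0 in 5 of the 9 tumours and reached 7.27 CPM in tumour 5, against 1.24, 2.27, 0.787, 7.09 and 5.3 CPM in healthy samples (edgeR adjusted p = 0.517).

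The genes of the T-cell receptor and of its signalling that passed were all lower in the leukaemias. Among 13 receptor and coreceptor genes, all tested, 2 fell, TAGAP and cd4-2.2, and none rose (1 at an unadjusted p under 0.05, 0 by DESeq2 and 0 by limma voom). Their median log2 fold change was -0.28. By DESeq2 2 fell and by limma voom 6, and these genes took 0.0979 to 0.47% of reads in the tumours, below healthy samples 1, 2, 4 and 5 in all 9, against 0.344 to 0.606% in healthy samples. Hulk tumour 2 and healthy sample 3, both rich in mitochondrial reads, had the lowest share of their group. Of all genes tested, 8.47% rose and 5.19% fell. TAGAP, not a receptor chain but a GTPase-activating protein that acts in T-cell activation and thymocyte adhesion, ranged from 54 to 297 CPM with a median of 167 in the tumours and stood at 1437, 1317, 407, 743 and 490.5 CPM in healthy samples. Every tumour was below every healthy sample (edgeR log2 fold change -2.34 ± 0.48, adjusted p = 0.00199). cd4-2.2, a second CD4-like gene of fish, ranged from 0.394 to 6.69 CPM with a median of 2.97 against 15, 13.6, 3.81, 24.9 and 28.2 CPM, with 6 of 9 tumours below all healthy samples (edgeR log2 fold change -2.4 ± 0.63, adjusted p = 0.0117).

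Among 29 T-cell receptor signalling genes, all tested, 9 fell (31.0%, against 5.19% of all genes tested) and none rose (0 at an unadjusted p under 0.05, 0 by DESeq2 and 0 by limma voom). Their median was -0.77, against 0.095 for all genes. They included bcl10, nfatc2b, ptprc, fynb, lcp2a, NFATC2, txk and RASGRP2 ENSDARG00000099092. ptprc (ENSDARG00000071437), CD45, the phosphatase that keeps LCK ready, was even in healthy samples at 1330.0, 1322, 1336, 1291 and 1262 CPM and ranged from 182 to 735 CPM with a median of 399 in the tumours. No tumour reached a healthy sample (edgeR log2 fold change -1.71 ± 0.48, adjusted p = 0.0164), but without the 3 libraries rich in mitochondrial reads ptprc missed the threshold (edgeR log2 fold change -1.67, adjusted p = 0.0533). nfatc2b (ENSDARG00000079972), a calcium-dependent transcription factor downstream of the receptor, ranged from 8.72 to 59 CPM with a median of 34.9 against 164, 209, 126, 201 and 169 CPM, again without overlap (edgeR log2 fold change -2.31 ± 0.59, adjusted p = 0.0104). UBASH3B ENSDARG00000061243, a phosphatase that dampens receptor signalling and is not in that list, fell too. It ranged from 0.492 to 6.68 CPM with a median of 3.36 in the tumours and stood at 77.5, 48.7, 10.2, 54.9 and 35.2 CPM in healthy samples, without overlap (edgeR log2 fold change -3.83 ± 0.68, adjusted p = 0.000466). Without the mitochondrial-rich libraries 7 of the signalling genes fell, and by library size alone 8.

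**Figure D2:**
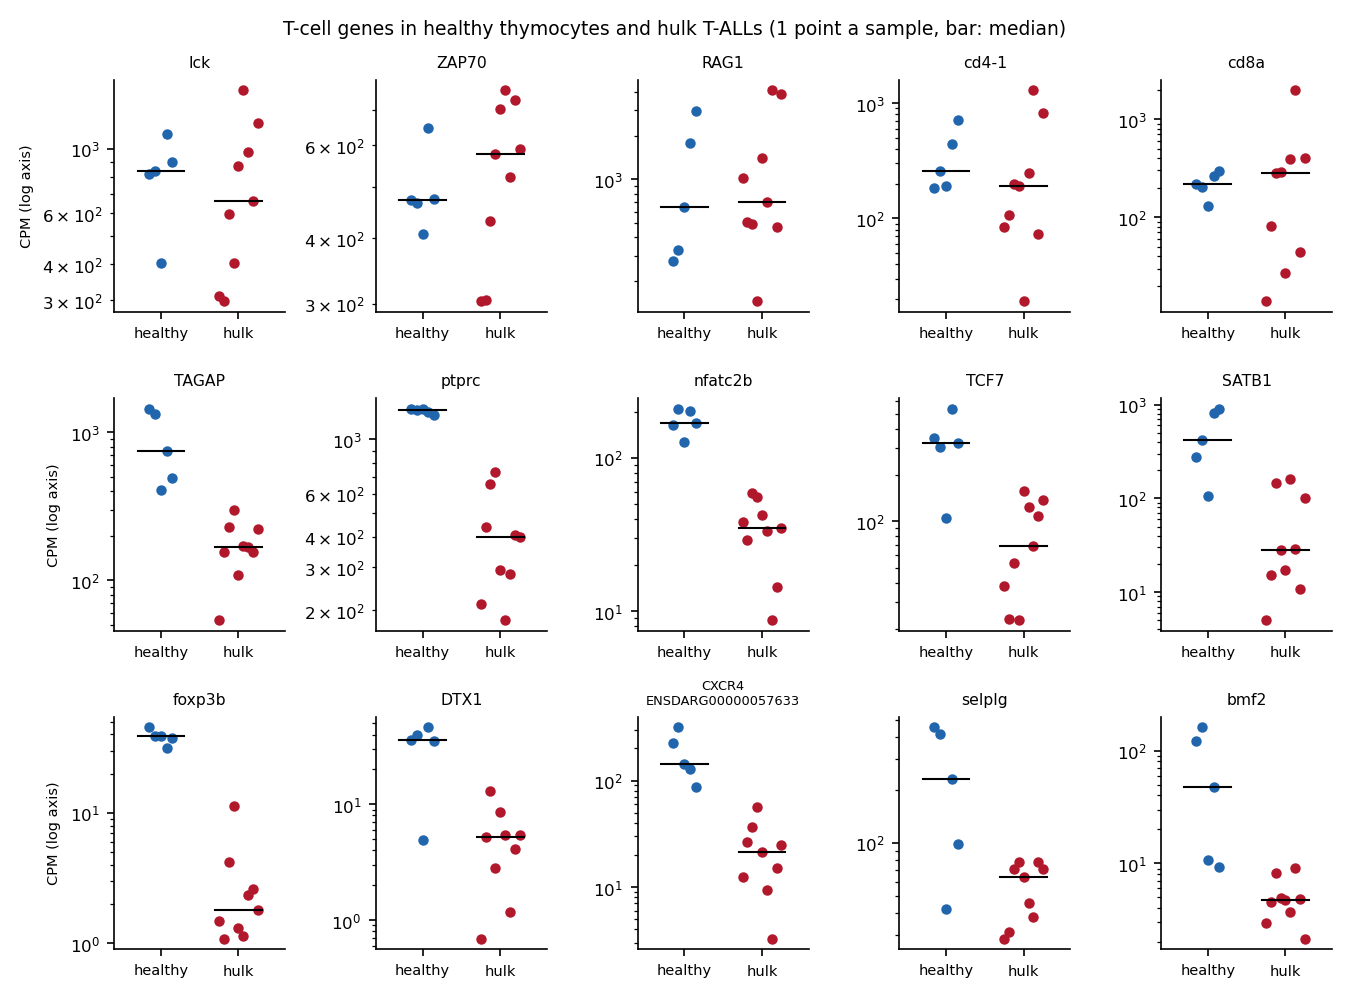
Each panel plots the CPM of a gene on a log axis for the 5 healthy samples and the 9 hulk T-ALLs, with a point for each sample and a bar at the median. lck, ZAP70, RAG1, cd4-1 and cd8a overlap between the groups, while all 9 tumours lie below all 5 healthy samples for TAGAP, ptprc, nfatc2b, foxp3b, CXCR4 ENSDARG00000057633 and bmf2.

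Of 12 genes of V(D)J recombination, 2 rose (16.7%) and 1 fell (8.3%), against 8.47% and 5.19% of all genes tested. The end-joining factors xrcc4 and LIG4 rose and the DNA-dependent protein kinase PRKDC fell (edgeR log2 fold changes 1.28, 1.03 and -1.24, adjusted p = 0.0218, 0.0477 and 0.0495). The groups overlapped for all of them, and without the 3 mitochondrial-rich libraries none of these calls held, at log2 fold changes of similar size (edgeR log2 fold changes 1.05, 0.98 and -1.25, adjusted p = 0.0724, 0.104 and 0.102).

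Transcription factors of T-cell development were lower in part. Among 45, all tested, 12 fell (26.7%, against 5.19% of all genes tested) and none rose (2 at an unadjusted p under 0.05, 1 by DESeq2 and 2 by limma voom). Their median was -0.77, and 8 fell without the mitochondrial-rich libraries. TCF7 (ENSDARG00000038672), the factor that Notch induces in early T cells, ranged from 22.8 to 156 CPM with a median of 69.4 in the tumours and stood at 346, 303, 105, 538 and 324 CPM in healthy samples. Healthy sample 3 was the only healthy sample within the range of the tumours (edgeR log2 fold change -1.99 ± 0.49, adjusted p = 0.00869). SATB1 (ENSDARG00000062621), a chromatin organiser of thymocytes, ranged from 5.02 to 159.7 CPM with a median of 28.2 against 277, 418, 106, 819 and 904 CPM, with 7 tumours below all healthy samples (edgeR log2 fold change -3.14 ± 0.86, adjusted p = 0.0145). Both were also lower than in otg and shrek T-ALLs (TCF7 edgeR log2 difference -1.77 ± 0.4, adjusted p = 0.000445, and SATB1 edgeR log2 difference -2.25 ± 0.71, adjusted p = 0.00933). In that comparison of tumours, 6528 (29.9%) of the genes tested were higher and 2950 (13.5%) lower in hulk.

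foxp3b, a paralogue of the regulatory T-cell factor FOXP3, was even in healthy samples at 45.1, 38.9, 38.8, 31.5 and 37.3 CPM and ranged from 1.08 to 11.3 CPM with a median of 1.82 in the tumours, with no overlap (edgeR log2 fold change -3.65 ± 0.96, adjusted p = 0.0124). Both genes under the symbol FOXO1, a factor of quiescence and homing, fell. FOXO1 ENSDARG00000061549 ranged from 0 to 4.42 CPM with a median of 1.63 against 44.1, 40.1, 1.97, 33.1 and 22 CPM, so healthy sample 3 lay among the tumours (edgeR log2 fold change -3.9 ± 0.83, adjusted p = 0.00323). FOXO1 ENSDARG00000099555 ranged from 3.25 to 35.5 CPM with a median of 19.4 against 163, 72.9, 36.6, 64.9 and 28.9 CPM (edgeR log2 fold change -1.96 ± 0.62, adjusted p = 0.0312). The T-lineage commitment factor bcl11ba ranged from 41.2 to 306 CPM with a median of 138 against 258, 376, 149, 659 and 783 CPM (edgeR log2 fold change -1.59 ± 0.49, adjusted p = 0.0286), and missed the threshold without the mitochondrial-rich libraries (edgeR log2 fold change -1.59, adjusted p = 0.0528). ets2, zeb1a, elf1, foxp1b, ETS1 and RUNX1 also fell, RUNX1 at no more than 7.66 CPM in any healthy sample. GATA3, RUNX3, IKZF1 and LEF1 did not pass (edgeR log2 fold changes 0.47, -0.23, -0.18 and -0.4, adjusted p = 0.672, 0.729, 0.672 and 0.866).

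Of 46 Notch pathway genes, 42 had enough reads to test. Of these 3 rose (7.1%) and 6 fell (14.3%), against 8.47% and 5.19% of all genes tested, with a median of -0.6. Without the mitochondrial-rich libraries 1 rose and 4 fell. Among the receptors, NOTCH1 ENSDARG00000103554 ranged from 0.488 to 7.96 CPM with a median of 2.97 in the tumours and stood at 37.9, 44.2, 11.6, 30.03 and 11 CPM in healthy samples, without overlap (edgeR log2 fold change -3.02 ± 0.95, adjusted p = 0.0309). Its paralogue NOTCH1 ENSDARG00000052094 ranged from 0 to 83.9 CPM with a median of 21.1 against 7.63, 23.8, 36, 48.2 and 33 CPM, overlapped and did not pass (edgeR log2 fold change -0.23 ± 1.3, adjusted p = 0.933). notch2 fell (edgeR log2 fold change -1.83, adjusted p = 0.0213), and NOTCH3, at no more than 4.16 CPM in any tumour, did not pass (edgeR log2 fold change -0.94, adjusted p = 0.573). Of the nuclear partners, the DNA-binding subunit RBPJ ENSDARG00000052091 ranged from 3.05 to 13.9 CPM with a median of 4.13 against 25.9, 22.3, 11, 19 and 24.3 CPM, with 8 tumours below all healthy samples (edgeR log2 fold change -1.87 ± 0.46, adjusted p = 0.00873). The coactivator MAML1 ranged from 13.2 to 33.7 CPM with a median of 25.1 against 38.4, 39.6, 45, 91.9 and 89.1 CPM, with all tumours below all healthy samples (edgeR log2 fold change -1.32 ± 0.41, adjusted p = 0.0272).

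DTX1, an E3 ligase that Notch induces in lymphocytes, ranged from 0.689 to 13.1 CPM with a median of 5.21 in the tumours against 36.2, 39.7, 4.92, 46 and 34.9 CPM in healthy samples (edgeR log2 fold change -2.64 ± 0.53, adjusted p = 0.00172). Healthy sample 3 was within the range of the tumours, and the other 4 healthy samples were above all of them. HES1, a repressor that Notch induces, also passed as lower, but through a single library: healthy sample 3 had 201 CPM, the other 4 had 3.91, 10.5, 5.03 and 7.24 CPM, and without healthy sample 3 the call was lost (edgeR adjusted p = 0.241). The genes that rose were DLD, LFNG and jag2a. DLD is a symbol used both for the Notch ligand deltaD and for a mitochondrial dehydrogenase, and which of them this gene encodes was not settled here. It ranged from 57.7 to 194 CPM with a median of 104 against 52.6, 52.2, 42.2, 59 and 52.7 CPM (edgeR log2 fold change 1.11 ± 0.28, adjusted p = 0.01). LFNG, the glycosyltransferase that tunes Notch receptors, had 221 CPM in tumour 1 and 3.69 CPM at the median tumour, and did not pass without tumour 1 (edgeR adjusted p = 0.656). The ligand gene jag2a ranged from 0.61 to 32 CPM with a median of 2.56 against 0.807, 1.17, 1.12, 0.958 and 0.682 CPM (edgeR log2 fold change 3.3 ± 1.14, adjusted p = 0.0455).

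Several cytokine signalling genes were lower in the leukaemias. Of 42 cytokine receptor and JAK-STAT genes 41 were tested. 7 fell (17.1%, against 5.19% of all genes tested), with a median of -0.51, and none rose (0 at an unadjusted p under 0.05, 0 by DESeq2 and 1 by limma voom). The common gamma chain il2rga, shared by interleukin receptors, ranged from 10.2 to 112 CPM with a median of 71.1 in the tumours and stood at 222, 218, 25.1, 205 and 162 CPM in healthy samples (edgeR log2 fold change -1.44 ± 0.46, adjusted p = 0.0328). Healthy sample 3 was as low as the tumours, and the other 4 were above all of them. stat5a, the transcription factor downstream of that chain, showed the same layout and ranged from 0.521 to 8.44 CPM with a median of 6.3 against 24.3, 22.3, 4.92, 21.7 and 22 CPM (edgeR log2 fold change -1.81 ± 0.52, adjusted p = 0.018). socs5b, an inhibitor of cytokine signalling, fell, with 7 of 9 tumours below all healthy samples (edgeR log2 fold change -2.07 ± 0.45, adjusted p = 0.00377). il7r, the interleukin 7 receptor chain often altered in T-ALL, was uneven among the tumours. It ranged from 27.3 to 1236 CPM with a median of 194 against 256, 225, 76.3, 194 and 214 CPM and did not pass (edgeR log2 fold change 0.83 ± 0.61, adjusted p = 0.377), and neither did the kinase gene jak3 (edgeR log2 fold change -0.2, adjusted p = 0.639). Also lower were ifngr1l, an interferon gamma receptor chain, and STAT3 (edgeR log2 fold changes -2.33 and -1.4, adjusted p = 0.0109 and 0.0151). Among 34 PI3K, AKT and mTOR genes 1 fell (2.9%) and none rose (1 at an unadjusted p under 0.05, 0 by DESeq2 and 0 by limma voom). It was PIK3CG, the leukocyte PI3-kinase subunit, which ranged from 32.4 to 129.8 CPM with a median of 80.8 against 266, 273, 207, 243 and 255 CPM, without overlap (edgeR log2 fold change -1.51 ± 0.32, adjusted p = 0.00295). PIK3CG was also lower than in otg and shrek T-ALLs (edgeR log2 difference -1.0 ± 0.25, adjusted p = 0.00114).

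Within the 20 BCL2 family genes tested, the 4 that fell were BH3-only genes, whose products promote cell death, and none rose (0 at an unadjusted p under 0.05, 0 by DESeq2 and 0 by limma voom). The shares over all genes tested were 5.19% lower and 8.47% higher. The list median was -0.22, against 0.095 for all genes. bmf2 ranged from 2.15 to 9.12 CPM with a median of 4.71 in the tumours and stood at 121, 160.1, 10.6, 47.8 and 9.28 CPM in healthy samples, so that every tumour lay below the lowest healthy sample (edgeR log2 fold change -3.8 ± 0.9, adjusted p = 0.00694). bcl2l11, which encodes BIM, the death inducer of thymocyte negative selection, ranged from 1.2 to 6.07 CPM with a median of 2.36 against 15.8, 15, 1.18, 14.3 and 12.7 CPM, with healthy sample 3 just below all tumours and the other 4 healthy samples above them (edgeR log2 fold change -2.08 ± 0.65, adjusted p = 0.03). pmaip1, encoding NOXA, and bmf1 fell as well (edgeR log2 fold changes -1.44 and -3.09, adjusted p = 0.043 and 0.0455), and neither passed without the mitochondrial-rich libraries (edgeR log2 fold changes -1.51 and -3.12, adjusted p = 0.0801 and 0.0782). Of the survival members, bcl2a ranged from 0.651 to 8.18 CPM with a median of 3.21 against 11.5, 12.9, 2.43, 13.9 and 15.3 CPM and missed the threshold (edgeR log2 fold change -1.7 ± 0.61, adjusted p = 0.0533), and BCL2L1, mcl1a and mcl1b did not pass (edgeR adjusted p = 0.398, 0.721 and 0.618). Of 20 members, 2 fell without the mitochondrial-rich libraries and 5 without healthy sample 3. Over all genes, 800 of 21489 were lower without those libraries and 1263 of 21677 without healthy sample 3.

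Homing receptors fell in part. Among 42 chemokine receptor, homing and adhesion genes 6 fell (14.3%, against 5.19% of all genes tested), with a median of -0.26, and none rose (2 at an unadjusted p under 0.05, 0 by DESeq2 and 0 by limma voom). CXCR4 ENSDARG00000057633, a receptor that retains blood cells at sources of CXCL12, ranged from 3.25 to 56.8 CPM with a median of 21.1 in the tumours against 223, 315, 142, 127 and 87.3 CPM in healthy samples, without overlap (edgeR log2 fold change -2.97 ± 0.72, adjusted p = 0.00789). Its paralogue CXCR4 ENSDARG00000041959 ranged from 75.6 to 587 CPM with a median of 177 against 881, 1327, 322, 564 and 179.5 CPM and did not pass (edgeR log2 fold change -1.46 ± 0.55, adjusted p = 0.0688). CCR9 ENSDARG00000055186, the receptor that draws progenitors to the thymus, ranged from 390.2 to 3472 CPM with a median of 1254 against 5007, 5084, 1861, 3469 and 2720.0 CPM (edgeR log2 fold change -1.19 ± 0.37, adjusted p = 0.0272). The paralogue CCR9 ENSDARG00000099738 did not pass (edgeR log2 fold change 0.78 ± 0.54, adjusted p = 0.342). selplg, the selectin ligand PSGL-1, ranged from 28.5 to 78.3 CPM with a median of 63.7 against 453, 418, 42.2, 229.7 and 98.7 CPM, with healthy sample 3 among the tumours (edgeR log2 fold change -2.14 ± 0.4, adjusted p = 0.000816). The integrin genes itgae.2 and itgb7 fell too (edgeR log2 fold changes -1.47 and -1.27, adjusted p = 0.0278 and 0.0428). Although lower than in healthy thymocytes, CXCR4 ENSDARG00000057633 (edgeR log2 difference 1.27 ± 0.5, adjusted p = 0.038) and selplg (edgeR log2 difference 1.28 ± 0.28, adjusted p = 0.000356) were higher in hulk than in otg and shrek T-ALLs. CCR7 and S1PR1, receptors of thymic exit, did not pass (edgeR log2 fold changes -2.18 and -0.33, adjusted p = 0.0598 and 0.844).

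No T-ALL oncogene passed as higher. Of 25, 18 had enough reads and none rose (0 at an unadjusted p under 0.05, 0 by DESeq2 and 2 by limma voom). The 2 list members that fell (11.1%, against 5.19% of all genes tested) were LMO3, at 2.03 CPM or less in every sample, and the RNA-binding protein gene ZFP36L2 (edgeR log2 fold change -1.54, adjusted p = 0.0222). Membership of the list does not show that ZFP36L2 acts as an oncogene. Neither LMO3 nor ZFP36L2 passed without the mitochondrial-rich libraries (edgeR log2 fold changes -2.79 and -1.4, adjusted p = 0.0681 and 0.0738). MYC, the growth regulator, is present as a pair of genes. MYC ENSDARG00000045695 stood at 1199 CPM in tumour 9 and 929.7 CPM in tumour 7, above all healthy samples (389, 503, 236, 207 and 129 CPM), while 6 other tumours were below all healthy samples, down to 22.7 CPM (edgeR log2 fold change 0.03 ± 1.13, adjusted p = 0.991). MYC ENSDARG00000007241 had the opposite layout in those tumours, with its lowest levels of 36.7 CPM in tumour 7 and 92.8 CPM in tumour 9 and up to 453 CPM in the others (edgeR log2 fold change -0.00098 ± 0.8, adjusted p = 1). TAL1 stayed at 1.64 CPM or less and LMO2 at 3.66 CPM or less in the tumours, and neither passed (edgeR log2 fold changes 0.57 and -1.55, adjusted p = 0.732 and 0.0818). TLX1 had too few reads to test. MYB and both MEF2C genes did not pass (edgeR adjusted p = 0.291, 0.879 and 0.496).

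Of 39 T-cell leukaemia tumour suppressors, 1 rose (2.6%) and 4 fell (10.3%), against 8.47% and 5.19% of all genes tested. Without the mitochondrial-rich libraries 0 rose and 2 fell. The 1 that rose was WT1, with 0 reads in the healthy samples and 71 in the tumours, at least 17.4-fold higher against a floor of 3 reads over the healthy group, and most of it in tumour 5 (3.86 CPM). cdkn2a/b, the cell cycle inhibitor gene that human T-ALL commonly deletes, was at 0.743 CPM or less in every tumour and 0.124 CPM or less in every healthy sample. PHF6 and EZH2 did not pass (edgeR log2 fold changes 0.14 and -0.37, adjusted p = 0.728 and 0.535).

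Among chromatin regulators a Polycomb gene pair rose and some DNA methylation enzymes fell. Of 60 Polycomb, trithorax and DNA methylation genes, 59 were tested, 2 rose (3.4%) and 9 fell (15.3%), with a median of -0.64. Among all genes tested 8.47% rose and 5.19% fell. Without the mitochondrial-rich libraries 2 of the list rose and 6 fell. The 2 that rose were both genes under the symbol BMI1, a Polycomb subunit that represses cell cycle inhibitors and sustains stem cells. BMI1 ENSDARG00000013076 ranged from 19.8 to 46.8 CPM with a median of 26.2 in the tumours and stood at 9.68, 8.71, 10.04, 7.95 and 15.8 CPM in healthy samples, with every tumour above every healthy sample (edgeR log2 fold change 1.58 ± 0.28, adjusted p = 0.000389). BMI1 ENSDARG00000006010 ranged from 27.9 to 176 CPM with a median of 61.3 against 22.7, 18.4, 26.6, 25 and 35.9 CPM, with 8 tumours above all healthy samples (edgeR log2 fold change 1.6 ± 0.35, adjusted p = 0.00411). Against otg and shrek T-ALLs neither BMI1 gene passed (edgeR log2 difference 0.14 ± 0.19, adjusted p = 0.578, and edgeR log2 difference 0.2 ± 0.23, adjusted p = 0.512, in the same order).

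The de novo methyltransferase gene DNMT3A ENSDARG00000015566 ranged from 1.04 to 11 CPM with a median of 4.72 in the tumours and stood at 54.9, 53.8, 12.5, 41.2 and 34.2 CPM in healthy samples, without overlap (edgeR log2 fold change -2.98 ± 0.73, adjusted p = 0.00835). DNMT3A ENSDARG00000005394 ranged from 2.34 to 17.7 CPM with a median of 8.35 against 42.1, 54.5, 8.47, 51.2 and 41.2 CPM, with healthy sample 3 among the tumours (edgeR log2 fold change -2.23 ± 0.58, adjusted p = 0.0105). The methylcytosine oxidase TET1 ranged from 0 to 8.12 CPM with a median of 2.97 against 17.9, 28.5, 8.79, 36.5 and 42.5 CPM, without overlap (edgeR log2 fold change -2.95 ± 0.63, adjusted p = 0.003), and its relative tet3 ranged from 2.32 to 18.7 CPM with a median of 8.35 against 73.2, 68.4, 9.84, 75.8 and 52.5 CPM (edgeR log2 fold change -2.68 ± 0.64, adjusted p = 0.00716). The histone methyltransferase genes kmt2ba and kmt2bb were below all healthy samples in all 9 tumours (edgeR log2 fold changes -1.58 and -1.74, adjusted p = 0.0281 and 0.0264), but missed the threshold without the mitochondrial-rich libraries (edgeR log2 fold changes -1.55 and -1.82, adjusted p = 0.0727 and 0.0558). JARID2 ENSDARG00000062268, phc2b and DOT1L fell as well. Of these 9 genes, DNMT3A ENSDARG00000005394, tet3, kmt2ba, kmt2bb, JARID2 ENSDARG00000062268 and DOT1L were also lower than in otg and shrek T-ALLs (edgeR log2 differences -2.0 to -1.3, adjusted p = 0.0089 or less). The 9 were picked as low in the same hulk tumours, so this count is a description only. Of the 59 genes tested in the list, 19 were lower and 3 higher in that comparison. Among all genes tested 13.5% were lower and 29.9% higher.

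Some genes of protein synthesis and turnover rose, and how many depended on the scaling and on the libraries included. Cytosolic ribosomal protein genes counted 20 rises and 0 falls among 85 (median 1.25). RPL5 ENSDARG00000020197 ranged from 1662 to 14920.0 CPM with a median of 3127 in the tumours and stood at 1612, 1197, 1551, 1003 and 849.6 CPM in healthy samples, with every tumour above every healthy sample (edgeR log2 fold change 1.87 ± 0.48, adjusted p = 0.0107). As a share of all reads the ribosomal protein genes took 8.67 to 39.9% in the tumours, highest in tumour 7, and 9.05 to 16.7% in healthy samples. The lowest share was that of tumour 2, where 61.4% of the reads in the total were mitochondrial. Mitochondrial ribosomal proteins counted 24 rises among 72 (median 0.95), and the example with the smallest p, MRPS16, ranged from 13.8 to 49.5 CPM with a median of 28.6 against 9.44, 10.3, 12, 12.2 and 16.1 CPM (edgeR log2 fold change 1.43 ± 0.3, adjusted p = 0.00306). Ribosome biogenesis genes counted 9 rises among 72 (12.5%, against 8.47% of all genes), nuclear genes of oxidative phosphorylation 10 among 91, and proteasome subunits 21 rises and 2 falls among 56. Among all genes tested 1.19% rose without overlap, a share limited to genes that passed and so not matched to the next count. Of the proteasome genes 12, counted whether or not they passed, were above every healthy sample in every tumour, such as the base subunit PSMC1's paralogue psmc1b, which ranged from 32 to 113 CPM with a median of 46 against 19.3, 27.18, 27.7, 28 and 27.3 CPM (edgeR log2 fold change 1.02 ± 0.26, adjusted p = 0.00907). The inducible subunits psmb12, PSMB8 and PSMB9, which shape peptides for antigen presentation, were among them (edgeR log2 fold changes 1.47, 1.21 and 1.45, adjusted p = 0.0124, 0.0442 and 0.0188).

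Without the 3 mitochondrial-rich libraries these lists counted 9 cytosolic ribosomal, 11 mitochondrial ribosomal, 4 biogenesis, 2 oxidative phosphorylation and 3 proteasome rises. Their medians moved from 1.25, 0.95, 0.41, 0.92 and 0.89 to 1.23, 0.85, 0.28, 0.83 and 0.65, in the same order. By library size alone they counted 14, 5, 0, 3 and 4, with medians of 0.7, 0.55, 0.01, 0.53 and 0.5. With only the groups compared in the fit they counted 14, 46, 12, 41 and 35, and by limma voom 20, 54, 15, 49 and 36. Over all genes 1148 of 21489 were higher without the 3 libraries and 939 of 21831 by library size alone. With only the groups compared 1886 of 16714 were higher, and by limma voom 3806 of 21831. The median of all genes moved from 0.095 to 0.126 without the 3 libraries and to -0.239 by library size alone. Against otg and shrek T-ALLs 2 of the 85 cytosolic ribosomal and 3 of the 56 proteasome genes were higher and 1 and 4 lower. In that comparison 29.9% of all genes tested were higher and 13.5% lower. Among 57 DNA replication genes none rose (0 at an unadjusted p under 0.05, 0 by DESeq2 and 2 by limma voom) and none fell (0 at an unadjusted p under 0.05, 0 by DESeq2 and 0 by limma voom). Mitosis genes counted 3 rises among 66 (4.5%, against 8.47% of all genes tested), such as pttg1, the securin gene (edgeR log2 fold change 1.44, adjusted p = 0.0466). By DESeq2 3 mitosis genes rose and by limma voom 21. mki67, the proliferation marker, ranged from 103 to 658 CPM with a median of 167 against 166, 242, 237, 481 and 665 CPM (edgeR log2 fold change -0.26 ± 0.61, adjusted p = 0.823).

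Stress, metabolic and repair genes were counted in the same way, beside the 8.47% of all genes tested that rose and the 5.19% that fell. Of 31 immediate early genes 1 rose and 4 fell, BTG1, which holds back proliferation, among the falls (edgeR log2 fold change -1.15, adjusted p = 0.0222). Without the mitochondrial-rich libraries 0 of them rose and 1 fell, while by DESeq2 8 fell and by limma voom 14. Of 33 heat shock and unfolded protein genes 2 fell, atf4b and HSF2 (edgeR log2 fold changes -1.13 and -0.88, adjusted p = 0.018 and 0.0293), and none rose (3 at an unadjusted p under 0.05, 1 by DESeq2 and 2 by limma voom). Glycolysis counted 5 rises and 2 falls among 40. The glucose transporter gene SLC2A1 ENSDARG00000007412 fell (edgeR log2 fold change -1.86, adjusted p = 0.0201), and the lactate dehydrogenase gene ldhbb rose (edgeR log2 fold change 3.24, adjusted p = 0.0225), ranging from 0.26 to 5.32 CPM with a median of 2.13 against 0.0621, 0.491, 0.525, 0.0479 and 0.0524 CPM. Cholesterol and fatty acid synthesis counted 1 rise and 1 fall among 36, and the serine, one-carbon and nucleotide list 2 rises and 1 fall among 39. Among 48 homologous recombination and DNA damage genes 1 rose and 1 fell, XRCC2 and RAD51C (edgeR log2 fold changes 2.03 and -1.37, adjusted p = 0.0317 and 0.0402). Mitochondrially encoded genes had a median of 1.92 and none rose (12 at an unadjusted p under 0.05, 5 by DESeq2 and 9 by limma voom), but the calls turned on single libraries. Without healthy sample 3, with tumours 1 and 2 kept, all 13 rose (median 3.43), while the median was 1.32 without all 3 mitochondrial-rich libraries and 0.48 without tumour 2, with 0 rises in both.

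Some interferon-stimulated genes rose. Of 45, 7 rose and 1 fell (median 0.96, or 0.88 with the gene that had no read in healthy samples at its bound). The shares over all genes tested were 8.47% higher and 5.19% lower, with a median of 0.095. The share of reads of this list overlapped between the groups, and tumours 1, 2, 7 and 9 were below the healthy median. Tumours 1 and 2 were rich in mitochondrial reads, which count in the total. isg15 (ENSDARG00000086374), a ubiquitin-like protein that interferon induces, ranged from 45.9 to 225 CPM with a median of 123 in the tumours and stood at 5.28, 5.46, 18, 2.01 and 2.94 CPM in healthy samples, so that every tumour was above every healthy sample (edgeR log2 fold change 4.36 ± 1.18, adjusted p = 0.0144). It was also higher than in otg and shrek T-ALLs (edgeR log2 difference 3.17 ± 0.65, adjusted p = 0.000164), and in preleukemic hulk thymocytes it ranged from 20.9 to 724 CPM. mxc, an antiviral GTPase, ranged from 3.52 to 92.4 CPM with a median of 16.4 against 4.04, 3.31, 4.79, 2.78 and 1.42 CPM (edgeR log2 fold change 3.12 ± 0.92, adjusted p = 0.0224), and pkz, the antiviral kinase of fish that senses Z-form nucleic acid, ranged from 8.59 to 63.2 CPM with a median of 24 against 7.88, 10.9, 7.42, 8.05 and 6.4 CPM (edgeR log2 fold change 1.75 ± 0.59, adjusted p = 0.0421). gig2o, isg20, mxb and ifit10 also rose, and IFIH1, the sensor MDA5, fell (edgeR log2 fold change -1.47, adjusted p = 0.0336). Without the mitochondrial-rich libraries 1 rose and 1 fell, and by library size alone 1 and 1. Over all genes, 1148 of 21489 were higher and 800 lower without those libraries. By library size alone these were 939 and 1101 of 21831. Other interferon-related genes were lower. gbp4, a guanylate-binding GTPase, was at 1.67 CPM or less in every tumour against 13.8, 6.75, 29.3, 4.65 and 13.3 CPM (edgeR log2 fold change -4.54 ± 1.22, adjusted p = 0.0133), and ifi44a5 had a median of 0 CPM in the tumours against 11.3, 13.6, 32, 23.4 and 26.8 CPM (edgeR log2 fold change -4.5 ± 0.86, adjusted p = 0.00111).

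Of 38 antigen presentation genes 5 rose (13.2%) and 1 fell (2.6%), against 8.47% and 5.19% of all genes tested. Without the mitochondrial-rich libraries 3 rose and 1 fell. RFXAP, a subunit of the factor that switches on MHC class II genes, ranged from 16 to 126 CPM with a median of 27.8 in the tumours against 12.1, 10.1, 14, 14.2 and 11.1 CPM, without overlap (edgeR log2 fold change 1.78 ± 0.47, adjusted p = 0.0124). A pair of MHC class I Z-lineage genes moved apart, with mhc1zca higher and mhc1zaa lower (edgeR log2 fold changes 3.84 and -2.2, adjusted p = 0.0119 and 0.00854). Sequence shared between such genes could divide their reads, which makes both values uncertain.

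The largest rises without overlap between the groups were, in order, aste1a, pld6, DDX4, DAZL, PIWIL2, AMDHD1, TDRD9, gra, cdh29, DHRS3 ENSDARG00000044803, isg15 and IFT22. aste1a (ENSDARG00000070132) had 1 read in the 5 healthy samples together and 3598 in the tumours, a ratio of 2639 with a 95% counting interval of 473 to 104300.0 that covers counting error only, and ranged from 1.56 to 44.6 CPM with a median of 34.5 in the tumours. It was also higher than in otg and shrek T-ALLs (edgeR log2 difference 6.48 ± 0.78, adjusted p = 3.19e-07), and the preleukemic hulk thymocytes held 41.5 to 114 CPM. Several of these act in germ cells. pld6, PIWIL2 and TDRD9 belong to the piRNA pathway, whose small RNAs silence transposons in the germ line, DDX4 is the germ-cell helicase Vasa, DAZL is a germ-cell RNA-binding protein and gra, granulito, is known from zebrafish germ cells. DDX4 ranged from 0.26 to 129.9 CPM with a median of 26.1 in the tumours and stood at 0.186, 0.0614, 0.131, 0.0479 and 0 CPM in healthy samples (edgeR log2 fold change 8.72 ± 2.16, adjusted p = 0.00895). gra ranged from 2.47 to 44.1 CPM with a median of 13.9 against 0.186, 0.184, 0.394, 0.192 and 0.0524 CPM (edgeR log2 fold change 6.46 ± 1.16, adjusted p = 0.000516) and did not pass against otg and shrek T-ALLs (edgeR log2 difference 0.58 ± 0.56, adjusted p = 0.423). AMDHD1, an enzyme of histidine breakdown, ranged from 0.262 to 39.6 CPM with a median of 3.28 against 0.0621, 0.0614, 0.197, 0.0958 and 0.105 CPM (edgeR log2 fold change 6.59 ± 1.21, adjusted p = 0.000641). DHRS3, a reductase that limits retinoic acid, ranged from 3.66 to 40.9 CPM with a median of 7.92 against 0.31, 0.552, 1.31, 0.287 and 0.262 CPM (edgeR log2 fold change 4.41 ± 1.22, adjusted p = 0.015).

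The largest falls without overlap were nlrp3l2, tnfrsfa, SLC10A1, CHST15, myo1hb, gbp4, ifi44a5, LOXL4 ENSDARG00000105442, TRPV6, NPR3, IGFBP5 ENSDARG00000039264 and UBASH3B ENSDARG00000061243. nlrp3l2 (ENSDARG00000104672), of the NOD-like receptor family that builds inflammasomes, ranged from 0.197 to 1.19 CPM with a median of 0.743 in the tumours and stood at 52.9, 40.5, 20.1, 50.05 and 57.4 CPM in healthy samples (edgeR log2 fold change -6.03 ± 0.89, adjusted p = 3.41e-05). It was lower than in otg and shrek T-ALLs as well (edgeR log2 difference -5.39 ± 0.8, adjusted p = 2.22e-06), and preleukemic hulk thymocytes were at 1.16 to 2.65 CPM, below all healthy samples. NOD-like receptor genes form large families in fish, so reads shared with near-identical copies make this level uncertain. tnfrsfa, of the tumour necrosis factor receptor superfamily, ranged from 0.217 to 4.09 CPM with a median of 0.986 against 122, 109, 11.8, 56.1 and 15.4 CPM (edgeR log2 fold change -5.32 ± 0.87, adjusted p = 0.00015). LOXL4 ENSDARG00000105442, a lysyl oxidase of the matrix, ranged from 0 to 3.38 CPM with a median of 0.759 against 35.4, 27.05, 18.1, 16.2 and 16 CPM (edgeR log2 fold change -4.42 ± 0.68, adjusted p = 4.98e-05). myo1hb, a class I myosin, ranged from 0.13 to 5.98 CPM with a median of 0.743 against 9.87, 18.5, 53.2, 31.6 and 57.1 CPM (edgeR log2 fold change -4.54 ± 0.75, adjusted p = 0.000163). SLC10A1, a bile acid transporter, and CHST15, which sulphates chondroitin, stayed at 1.13 and 1.27 CPM or less in every tumour (edgeR log2 fold changes -4.87 and -4.59, adjusted p = 0.00481 and 0.005). TRPV6, NPR3 and IGFBP5 missed the threshold without the mitochondrial-rich libraries (edgeR log2 fold changes -3.5, -3.69 and -3.37, adjusted p = 0.0585, 0.0726 and 0.0684).

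**Figure D3:**
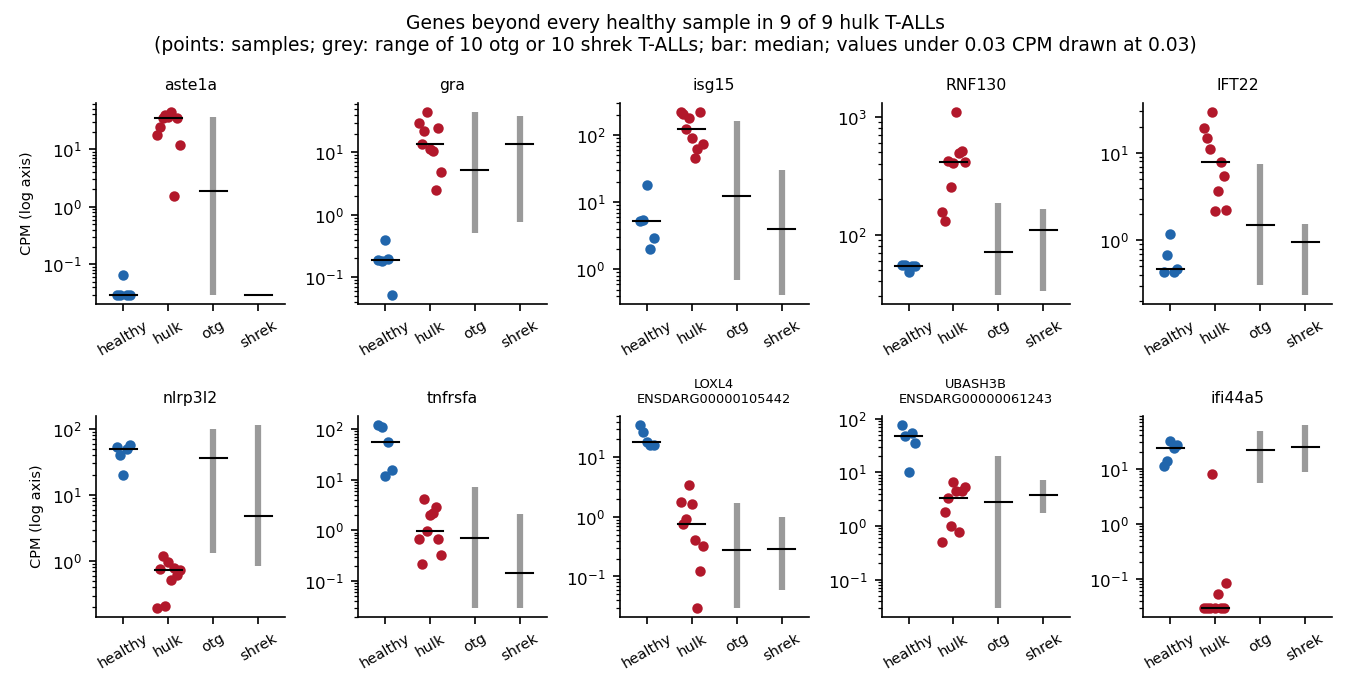
Each panel plots the CPM of a gene on a log axis for the 5 healthy samples and 9 hulk T-ALLs as points, with grey lines for the range of the 10 otg and the 10 shrek T-ALLs, bars at the medians, and values under 0.03 CPM drawn at 0.03. All 9 hulk tumours lie above all healthy samples in the upper panels and below them in the lower panels, while gra and tnfrsfa in hulk lie within the range of the otg T-ALLs.

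Genes that passed in the same direction against healthy thymocytes and against the otg and shrek T-ALLs are given with both values. The comparisons share the 9 hulk tumours, so passing in both is no independent evidence. With the fit limited to tumours, 15102 genes were tested, and 2452 were higher and 1472 lower than in otg and shrek T-ALLs. The median log2 difference was -0.029 in that fit, against 0.176 over the 21831 genes of the reported fit. RNF130 (ENSDARG00000089767), a RING-finger ubiquitin ligase, was nearly constant in healthy samples at 55.3, 55.1, 48.5, 54.3 and 54.5 CPM and ranged from 129.6 to 1112 CPM with a median of 413 in the tumours, all of which were above all healthy samples (edgeR log2 fold change 3.02 ± 0.44, adjusted p = 3.06e-05). The otg and shrek medians were 71.3 and 109 CPM (edgeR log2 difference 2.19 ± 0.26, adjusted p = 5.04e-08), and preleukemic hulk thymocytes held 79.9 to 162 CPM. NPTN ENSDARG00000103002, an immunoglobulin-like adhesion protein, ranged from 1.69 to 162 CPM with a median of 26.5 against 0.807, 1.1, 2.3, 0.383 and 0.157 CPM (edgeR log2 fold change 5.5 ± 0.96, adjusted p = 0.000379; against the other lines edgeR log2 difference 7.79 ± 0.59, adjusted p = 6e-13). CASP6, an executioner caspase, ranged from 3.3 to 11.9 CPM with a median of 8.57 against 1.43, 1.35, 1.05, 1.63 and 1.31 CPM, without overlap (edgeR log2 fold change 2.6 ± 0.84, adjusted p = 0.0336), and missed the threshold without the mitochondrial-rich libraries (edgeR log2 fold change 2.44, adjusted p = 0.0898). Among the lower genes was ifi44a5 (against the other lines edgeR log2 difference -4.9 ± 0.8, adjusted p = 8.5e-06). ftr50.2, of the large finTRIM family of fish, whose members could share reads, ranged from 1.16 to 12.5 CPM with a median of 3.36 against 36, 25, 17.5, 19.7 and 18.8 CPM (edgeR log2 fold change -2.6 ± 0.41, adjusted p = 8.37e-05; against the other lines edgeR log2 difference -2.18 ± 0.34, adjusted p = 4.6e-06). GFM2, a mitochondrial translation factor, VAT1L and AMMECR1 were the other lower genes of this kind (edgeR log2 fold changes -1.64, -2.39 and -1.23, adjusted p = 0.0022, 0.00861 and 0.00941), each with overlap between tumours and healthy samples.

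Transcripts of other cell types were looked at in the same way. Of the germ cell and meiosis genes, 47 of 55 had enough reads to test, 36 rose and none fell (0 at an unadjusted p under 0.05, 0 by DESeq2 and 1 by limma voom). The median was 6.1 (5.96 with genes at their bound), over genes that mostly passed the filter through the tumours. Among all genes tested 8.47% rose, and the median was 0.095. Motile cilium and sperm flagellum genes counted 31 rises among 49 tested of 54 (median 5.14, or 5.09 with bounds), and none fell (0 at an unadjusted p under 0.05, 0 by DESeq2 and 0 by limma voom). Their share of reads was 0.00591 to 0.176% for germ cell and 0.000936 to 0.111% for cilium genes in the tumours, against 0.0175 to 0.027% and 0.00398 to 0.00531% in healthy samples. The tumours were not alike: DDX4 stood at 79.9, 26.8, 65.9, 129.9, 1.57, 26.1, 0.26, 6.89 and 2.81 CPM in tumours 1 to 9, and both shares were below those of every healthy sample in tumours 5, 7 and 9. Without the mitochondrial-rich libraries 25 germ cell and 15 cilium genes rose. Against otg and shrek T-ALLs 38 and 41 of the 47 germ cell and 49 cilium genes tested were higher, as were 29.9% of all genes tested. The filter favours genes that are high in the hulk tumours, so these counts are a description only.

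Few markers of blood and stromal cells passed, but their share of reads varied widely between tumours. As a log2 ratio to the median healthy share, cytotoxic markers stood between -5.19 in tumour 7 and 2.23 in tumour 4. B-cell, fibroblast and macrophage markers were lowest in tumour 7 as well, at -3.97, -3.19 and -3.16. Among 15 B-cell markers none rose (1 at an unadjusted p under 0.05, 0 by DESeq2 and 0 by limma voom) and none fell (2 at an unadjusted p under 0.05, 0 by DESeq2 and 5 by limma voom). Among 21 endothelial markers none rose (0 at an unadjusted p under 0.05, 0 by DESeq2 and 1 by limma voom) and none fell (1 at an unadjusted p under 0.05, 0 by DESeq2 and 0 by limma voom). Among 24 fibroblast markers none rose (0 at an unadjusted p under 0.05, 0 by DESeq2 and 1 by limma voom) and none fell (3 at an unadjusted p under 0.05, 2 by DESeq2 and 1 by limma voom). Macrophage and dendritic markers counted 3 rises and 1 fall of 37, and c1qb, a complement component that macrophages make, ranged from 2.31 to 16.7 CPM with a median of 7.58 in the tumours against 1.55, 1.17, 1.64, 1.92 and 1.99 CPM (edgeR log2 fold change 2.42 ± 0.7, adjusted p = 0.0191). Of the cytotoxic markers, 1 rose and 3 fell of 40. The granzyme gene gzma ranged from 0.208 to 9.02 CPM with a median of 3.36 against 33.5, 64.5, 29.2, 54.5 and 59.9 CPM, without overlap (edgeR log2 fold change -3.63 ± 1.19, adjusted p = 0.0364), and missed the threshold without the mitochondrial-rich libraries (edgeR log2 fold change -3.67, adjusted p = 0.0787). The thymic epithelial genes psmb11b and PSMB11, which encode the thymoproteasome subunit of cortical epithelium, had 1 and 0 reads in the tumours and 48 and 27 in healthy samples. The ratio of healthy samples to tumours for psmb11b was 65.4 with a 95% counting interval of 11.2 to 2638, and PSMB11 was at least 12.3-fold lower in the tumours. These were the 2 that fell of 18 thymic epithelial markers, and none rose (0 at an unadjusted p under 0.05, 0 by DESeq2 and 1 by limma voom). Rises were counted for 1 of 12 neutrophil, 1 of 7 thrombocyte, 2 of 17 kidney and 1 of 8 heart markers. Falls were counted for 2 of 17 erythroid, 1 of 17 blood progenitor, 2 of 25 skeletal muscle, 1 of 31 skin and 1 of 21 brain and retina markers. For comparison, 8.47% of all genes tested rose and 5.19% fell, so such small counts are a description only.

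Counts for liver and pancreas transcripts depended on single libraries. Of 40 liver genes 5 rose (12.5%, against 8.47% of all genes tested), 23 without healthy sample 3 and 16 without the mitochondrial-rich libraries. The yolk protein gene vtg6 had 0 reads in healthy samples and 64.2 CPM in tumour 5, at least 242-fold higher over the groups, and missed the threshold without that tumour (edgeR adjusted p = 0.29). Of 31 pancreas and gut genes 2 fell (6.5%, against 5.19% of all genes tested) and none rose (1 at an unadjusted p under 0.05, 1 by DESeq2 and 16 by limma voom), and without healthy sample 3 4 rose and 0 fell. The elastase gene ela2l stood at 7.51, 2.82, 237, 2.06 and 2.99 CPM in healthy samples and ranged from 0.915 to 19.6 CPM with a median of 6.2 in the tumours, with an edgeR log2 fold change of -2.8 that turned to 0.91 without healthy sample 3 (edgeR adjusted p = 0.514). The part of such transcripts in the results above was not tested.

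**Figure D4:**
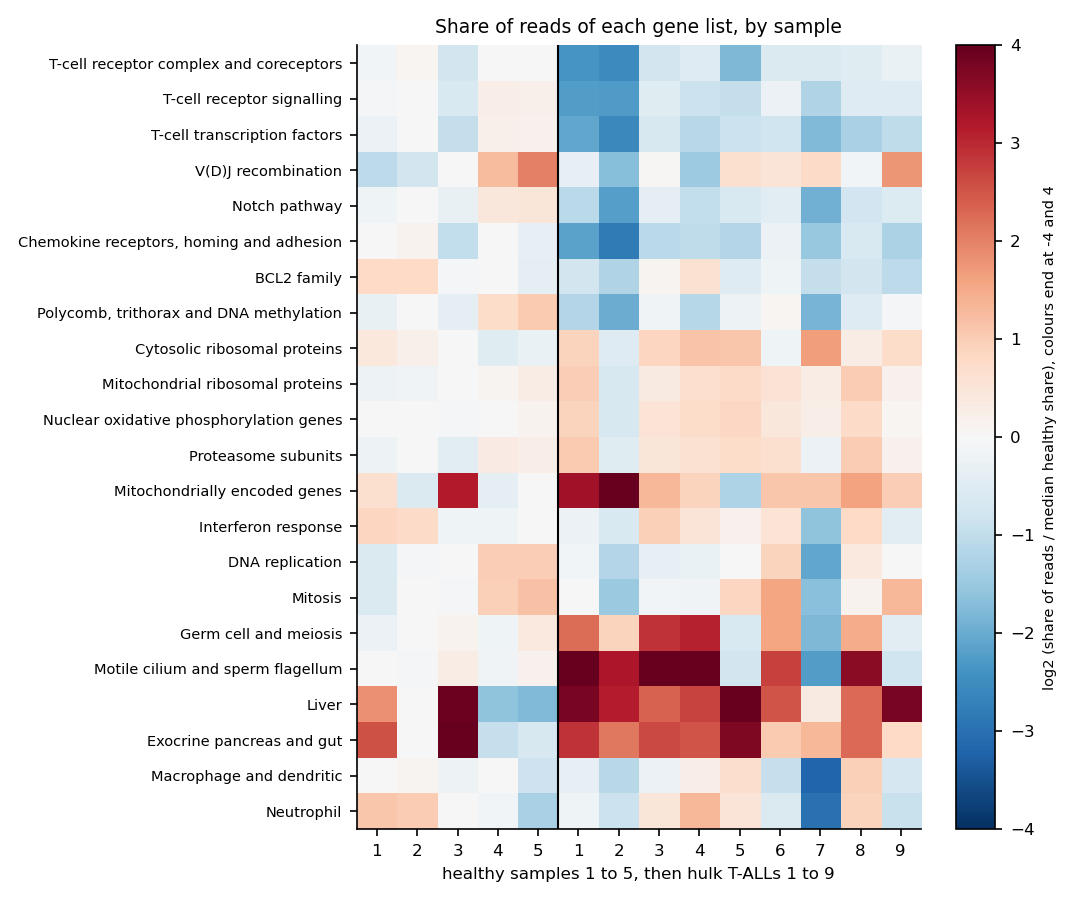
Each cell gives the log2 ratio of the share of reads of a gene list (vertical axis) in a sample (horizontal axis: healthy samples 1 to 5, then hulk T-ALLs 1 to 9) to the median healthy share, with colours ending at -4 and 4. Mitochondrially encoded genes are high in tumours 1 and 2 and healthy sample 3, cilium genes are high in tumours 1, 2, 3, 4, 6 and 8, and pancreas genes are highest in healthy sample 3.

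Several rises came from few tumours. By the ratio of the highest to the median tumour, the most uneven genes were vtg2, BICC1 ENSDARG00000061682, dtnbp1b, SIM1, NMNAT2 and btla. BICC1, an RNA-binding protein, was at 347 CPM in tumour 1 with a median of 0.726 CPM, and missed the threshold without that tumour (edgeR adjusted p = 0.14). SIM1, a neural transcription factor, was at 126 CPM in tumour 9 (2 reads in the healthy samples), and did not pass without it (edgeR adjusted p = 0.27). NMNAT2, an enzyme of NAD synthesis, was at 129.9 CPM in tumour 3 and below the highest healthy sample in the other 8, and dtnbp1b was at 125 CPM in tumour 8 with a median of 0.108 CPM. btla, an inhibitory receptor of lymphocytes, was at 28.7, 41.5 and 7.93 CPM in tumours 4, 8 and 9 and at no more than 0.108 CPM in the others. vtg2, another yolk protein gene, was at 87.8 CPM in tumour 5. The tumours that shared high RAG1 and MYC ENSDARG00000045695, numbers 7 and 9, also had the highest cdh29, a cadherin gene, at 371 and 102 CPM against a median of 35.6 CPM. These were picked after the values were seen, and no test was made between tumours.

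**Figure D5:**
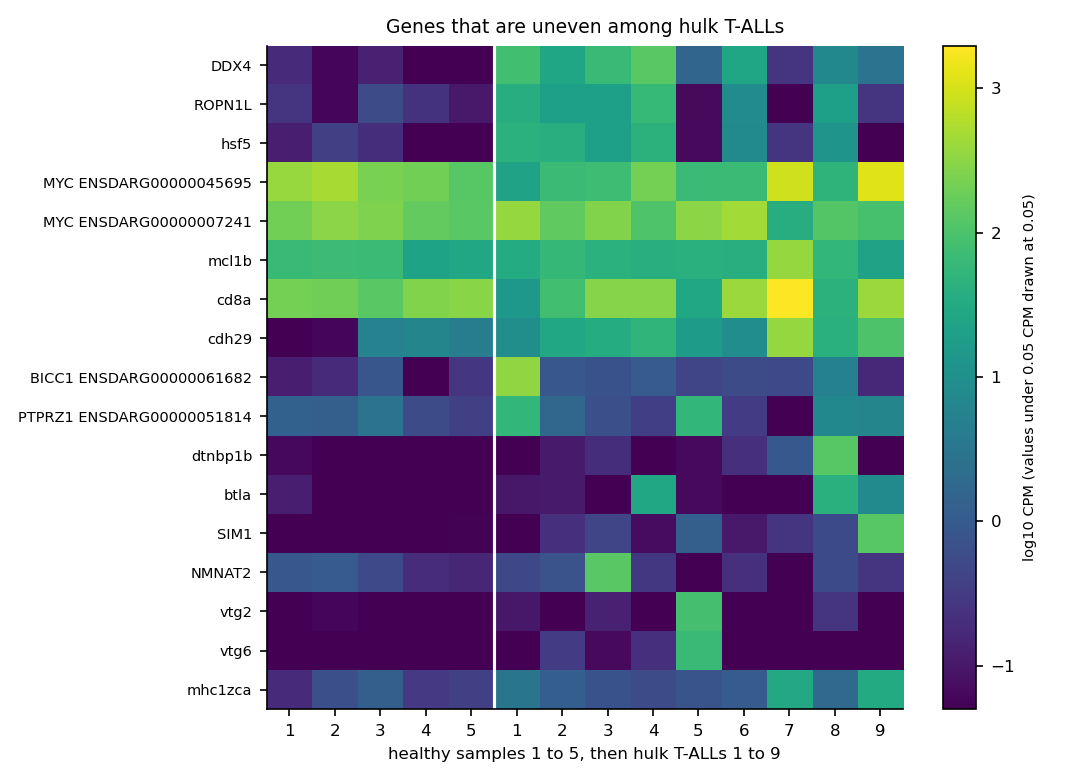
Colours give log10 CPM, with values under 0.05 CPM drawn at 0.05, for genes (vertical axis) in healthy samples 1 to 5 and hulk T-ALLs 1 to 9 (horizontal axis). BICC1, dtnbp1b, SIM1, NMNAT2 and the yolk genes are each high in a single tumour, and MYC ENSDARG00000045695 is highest in tumours 7 and 9.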

How the data were processed

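PolyA RNA of sorted cells was sequenced after a TruSeq stranded mRNA preparation, per the labels. The authors deposited raw read counts per gene, and STAR and GRCz10 are named in the submitters' processing notes. The version, the annotation and the strand setting of the counting are not given in the sources used here. Summary entries that name no gene held 19.3 to 41.9% of the counts of the hulk tumours and 24.4 to 42.2% of those of healthy samples and were left out. 9 columns of the tables matched no label and were not analysed here. Symbols came from a gene name table that matched 27000 of 35117 genes. A symbol shared by paralogues is printed with its identifier.

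Counts were fitted with edgeR 4.0.16 (R 4.3.3): filterByExpr (10 reads in enough samples, 15 in all), TMM factors of 0.493 to 1.44 in the 14 samples, and robust quasi-likelihood tests over 46 samples of the same laboratory in 1 fit, which share an estimate of spread. p-values were adjusted by Benjamini-Hochberg over 21831 genes. The tests were run on simulated counts in which only genes with many reads and moderate spread were changed, and the groups were otherwise alike. That setting is easier than the real data, so it does not vouch for the p-values given here. Alternatives were DESeq2 1.42.0, limma 3.58.1 voom, other scalings and filters, smaller sets of samples and a replicate block. Nothing in the labels says that samples of a group come from separate fish, so p-values measure the spread between these samples, which may be technical. Replicates differed by more than counting error in every pair (smallest median chi-square per gene 4.04, healthy samples 1 and 2).

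The members of 48 gene lists (29 of pathways, 19 of cell type markers) were chosen with earlier results of these data known. Genes were named by rule: the 12 largest changes each way without overlap and with a mean of at least 8 CPM, up to 4 members per list by smallest p, a fixed panel, up to 6 each way that also differed from otg and shrek T-ALLs, and the 6 most uneven rises. Other list members are named after their values were seen: SATB1, MAML1, notch2, jag2a, LFNG, itgb7, kmt2ba, kmt2bb, PSMB8, PSMB9 and those named without a value. Intervals of read ratios and the floor of 3 reads, at a level of 95%, cover counting error only. Some genes and a gene list are not reported here.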

Additional observations from a re-analysis of the deposited data

Results flagged for a closer look

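Single samples far from the rest of their group on a log2 scale were searched for in 178 groups of values, which were the 9 tumours or the 5 healthy samples for each of 48 lists and 41 panel genes. Such a sample was found in 11, and chance gives about 1 in 20 groups. Healthy sample 3 gave 8 of them. Its reads held 0.344% T-cell receptor and coreceptor transcripts and 0.116% thymic epithelial transcripts, against 0.53, 0.606, 0.57 and 0.58% and 0.0564, 0.0515, 0.0498 and 0.0533% in healthy samples 1, 2, 4 and 5. DTX1 and stat5a stood at 4.92 CPM each in that sample, il2rga at 25.1 CPM, il7r at 76.3 CPM and bcl2a at 2.43 CPM, below the other healthy samples, and HES1 at 201 CPM, above them. Hulk tumour 2 had 0.0301% of reads in T-ALL oncogenes, against 0.0842 to 0.24% in the other tumours. Of its reads 61.4% were mitochondrial and counted in that total. Hulk tumour 7 had 0.0297% in macrophage and dendritic markers, against 0.123 to 0.514% in the others, and 372 CPM of mcl1b, a survival gene, against 22.7 to 57.8 CPM in the others. The hulk tumours also differed from otg and shrek T-ALLs in 6528 higher and 2950 lower genes by edgeR's test of that difference. These values were not tested further.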

How the results depend on the processing

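The count of genes higher in hulk T-ALLs, 1850, became 939 by library size alone, a scaling that shifted the overall median log2 fold change from 0.095 to -0.239, 1148 without the 3 mitochondrial-rich libraries, of which 1009 were among the 1850, and 3806 by limma voom. The 1133 lower genes became 3368 by voom. Leaving out each sample in turn gave 802 to 1963 higher and 582 to 1263 lower genes, with the counts without healthy samples 1, 2, 4 and 5 at 830, 802, 823 and 1064 higher and 598, 582, 593 and 713 lower. Apart from the replicate block, all other alternatives kept both counts within 1.5 times. Similar counts did not mean the same genes. With only the groups compared in the fit, 1886 genes were higher and 1333 lower, of which 1315 and 840 were among the reported ones. Replicate numbers recur in both groups but did not pair the samples (correlations of same-numbered deviations -0.152, 0.093, -0.216, -0.108 and 0.266), and with the replicate block over numbers 1 to 5, 369 genes were higher and 285 lower, against 1503 and 1095 in the same 10 samples without it. Of those 1503 and 1095 genes, only 697 and 620 were among the reported ones. Against otg and shrek T-ALLs, 6528 higher genes became 2452 and 2950 lower genes 1472 with only those groups fitted, where 15102 genes were tested. The lower genes became 1684 by library size alone and 1752 without the mitochondrial-rich libraries. Leaving out each tumour gave 5926 to 7000 higher and 2195 to 2827 lower genes. ela2l, -2.8 in the reported fit, turned to 0.77 without the mitochondrial-rich libraries, 0.057 by voom and 0.9987 with the replicate block, and ranged from -3.15 to 0.91 over samples left out, the last without healthy sample 3. NMNAT2 turned to -0.92 by DESeq2 and ranged from -0.80 to 5.07, the lowest without tumour 3. The cause was not tested. A check of gene length was void, since only 73.9% of genes tested, 74.3% of the higher and 65.8% of the lower genes had a length, under the 80% required. Depth limits genes with few reads most, and libraries of 10899692 or more reads leave an exact 0 uncertain below 3 reads.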

Other observations

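Clock genes and intraflagellar transport genes were grouped after their values had been seen, so their counts are a description and carry no test of the group. Of 31 genes of the period, cryptochrome and related clock families, 13 fell in hulk T-ALLs against healthy thymocytes and 30 had a negative log2 fold change, with a median of -1.17. In 10 of the 31 every tumour was below every healthy sample. Of all genes tested, 5.19% fell, and 1.64% fell without overlap, a share limited to genes that passed. PER2, a light- and clock-driven repressor, ranged from 1.77 to 36.5 CPM with a median of 9.38 in the tumours and stood at 168, 160.5, 79.3, 216 and 37.9 CPM in healthy samples (edgeR log2 fold change -3.23 ± 0.79, adjusted p = 0.00868). CRY1 ENSDARG00000045768, a cryptochrome repressor, ranged from 18.7 to 59.7 CPM with a median of 34.9 against 189.5, 147, 113, 202 and 93.8 CPM (edgeR log2 fold change -2.01 ± 0.5, adjusted p = 0.00873), and PER3 ranged from 24.4 to 93.2 CPM with a median of 49.1 against 237, 188, 142, 212 and 196 CPM (edgeR log2 fold change -1.82 ± 0.45, adjusted p = 0.0086). All 3 were also lower than in otg and shrek T-ALLs (PER2 edgeR log2 difference -2.39 ± 0.66, adjusted p = 0.00332), as were 9 of the group in all, while rorab was higher (edgeR log2 difference 1.68 ± 0.43, adjusted p = 0.00172). In that comparison 13.5% of all genes tested were lower and 29.9% higher. cry4 was the gene with a positive value (edgeR log2 fold change 0.09, adjusted p = 0.907). The count of falls was 9 without the mitochondrial-rich libraries and 12 without healthy sample 3. Times of collection are not in the labels.

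Intraflagellar transport carries proteins along cilia. Of 19 such genes 13 rose and 19 had a positive log2 fold change, with a median of 1.69. Among all genes tested 8.47% rose, and the median was 0.095. IFT22 ranged from 2.16 to 29.8 CPM with a median of 7.81 in the tumours and stood at 0.434, 0.675, 1.18, 0.431 and 0.472 CPM in healthy samples, without overlap (edgeR log2 fold change 4.06 ± 0.7, adjusted p = 0.000292). DYNC2I2, a subunit of the retrograde motor, ranged from 5.29 to 36.4 CPM with a median of 13.4 against 1.18, 1.1, 0.984, 3.21 and 2.046 CPM, again without overlap (edgeR log2 fold change 3.29 ± 0.49, adjusted p = 3.42e-05). Tumours 5, 7 and 9, low in motile cilium genes, had 2.16, 7.81 and 2.23 CPM of IFT22. IFT22 was named by a rule that required no overlap, so its level above all healthy samples in these tumours follows from that choice. In 5 of the 19 every tumour was above every healthy sample. Among all genes tested 1.19% rose without overlap, a share limited to genes that passed. GAS8, a subunit of the axonemal regulatory complex and also picked after its values were seen, ranged from 4.39 to 56.8 CPM with a median of 23.1 against 3.17, 2.64, 1.84, 2.97 and 2.46 CPM (edgeR log2 fold change 3.33 ± 0.46, adjusted p = 1.44e-05). 12 of the 19 were higher than in otg and shrek T-ALLs, as were 29.9% of all genes tested. The count of rises was 11 without the mitochondrial-rich libraries and 9 by library size alone.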
